A study of Arabidopsis thaliana with 6 samples.

Results

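*APETALA1* (*AP1*), *CAULIFLOWER* (*CAL*), *FRUITFULL* (*FUL*) and *AGAMOUS-LIKE 79* (*AGL79*) form one clade of MADS-box transcription factor genes of *Arabidopsis thaliana*. They were chosen by membership of this clade, by their gene identifiers AT1G69120, AT1G26310, AT5G60910 and AT3G30260, and they make up 4 of the 33610 genes counted. Of these 4 genes, 3 had a count in at least 1 library and were among the 25458 genes tested. *AGL79* had no count in any library.

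AP1 and CAL act together to turn young lateral meristems into flowers, and AP1 also takes part in making sepals and petals. FUL is expressed in the inflorescence meristem, where it shares functions with AP1 and CAL, and later in the fruit, where it is needed for the valves to grow. MADS proteins bind DNA as dimers at CArG boxes, and the SEPALLATA (SEP) proteins join such dimers into tetramers, with AP1 among their partners.

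RNA was sequenced from inflorescence meristems with flower buds up to stages 10-11, harvested from plants raised side by side under long days. The 6 libraries are of 3 genotypes with 2 libraries each, namely *sep1 sep2*, then *sep1 sep2 sep3*, and lastly the *sep1 sep2 sep3* background expressing *SEP3*, and all of them share the *sep1* and *sep2* mutations. These are called the double mutant, the libraries labelled as the triple mutant and the *SEP3* lines. The last are 2 independent complemented lines with 1 library each. The mutant alleles, the promoter driving *SEP3* and the source of the replicates (plants, pools or harvests) are not given in the sources used here, wild-type plants were not analysed here, and p-values thus measure the spread between these libraries, which may be technical.

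The libraries held 24000063 to 31263376 counts on genes, and levels are given as CPM, counts divided by the library total and scaled to a common depth with TMM factors. Libraries of the same genotype differed by more than counting error (chi-square per degree of freedom of 13.89 to 18.32), and libraries of different genotypes differed more (35.56 to 81.43). *SEP3* was at 130 and 136 CPM in the double mutant, at 150 and 151 CPM in the libraries labelled as the triple mutant, and at 489 and 332 CPM in the *SEP3* lines. *SEP3* was thus no lower under the triple mutant label than in the double mutant, so every direction drawn from these libraries rests on the labels. The allele is not given, and whether counts on the gene can check this label was not tested. *SEP1* was at 2.00 to 5.60 CPM over the 6 libraries and overlaps 2 annotated genes on the other strand. *SEP2* was at 79.2 and 44.3 CPM, at 15.5 and 11.5 CPM, and at 16.6 and 108 CPM in the same order of genotypes. All 9 markers of flower buds and their meristems had counts in at least 1 library. The stem cell gene *CLV3* had 0 counts in both double mutant libraries and in the first *SEP3* line, and 4 in each of the others. The summed level of the markers was 475.5 to 553.7 CPM. This sum does not show single markers, of which *LFY*, *PI* and *WUS* differed between genotypes, with values given below.

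The 4 genes are alike in structure, each with 8 exons in its longest transcript model and a coding length of 729 to 771 bp in the RefSeq annotation of TAIR10.1. *AP1* lies at chr1:25982294-25986349 and *CAL* at chr1:9099994-9103644, both on the minus strand. *FUL*, listed there as *AGL8*, lies at chr5:24502434-24506269 on the minus strand, and *AGL79* at chr3:11908870-11913166 on the plus strand. None of the 4 overlaps another annotated gene. The coding sequences of *AP1* and *CAL* were identical at 84.3% of aligned positions, against 68.5% for *AP1* and *FUL* and 64.9% for *AP1* and *AGL79*.

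The first coding exon, which runs from the start codon and encodes most of the DNA-binding MADS domain, is where the genes are most alike, and it is printed to show how far reads of one gene can be told from those of another. It is 185 bases long in all 4 genes, at chr1:25985918-25986102 in *AP1*, chr1:9103326-9103510 in *CAL*, chr5:24505829-24506013 in *FUL* and chr3:11909119-11909303 in *AGL79*. The lines give the coding strand of TAIR10.1 from 5′ to 3′, and capitals mark bases that differ from *AP1*.
AP1: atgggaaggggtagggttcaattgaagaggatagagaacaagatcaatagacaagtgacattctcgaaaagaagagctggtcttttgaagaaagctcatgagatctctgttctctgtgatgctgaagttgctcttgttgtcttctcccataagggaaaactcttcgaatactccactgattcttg
CAL: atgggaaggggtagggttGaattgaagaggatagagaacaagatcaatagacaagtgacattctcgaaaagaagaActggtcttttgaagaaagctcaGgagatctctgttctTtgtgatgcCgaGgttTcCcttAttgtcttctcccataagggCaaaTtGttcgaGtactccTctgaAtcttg
FUL: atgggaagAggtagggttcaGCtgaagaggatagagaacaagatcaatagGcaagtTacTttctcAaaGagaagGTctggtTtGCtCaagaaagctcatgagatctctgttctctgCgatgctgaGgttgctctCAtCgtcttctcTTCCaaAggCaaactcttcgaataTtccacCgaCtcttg
AGL79: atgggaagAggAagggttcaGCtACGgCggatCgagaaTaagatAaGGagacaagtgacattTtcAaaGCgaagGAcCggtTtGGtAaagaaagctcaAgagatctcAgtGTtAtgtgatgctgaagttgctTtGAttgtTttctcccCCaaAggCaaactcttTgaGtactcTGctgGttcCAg
*CAL* differed from *AP1* at 15 of these bases, *FUL* at 28 and *AGL79* at 44. In the stretch of 150 bases, the length of a read, where the exons were most alike, *CAL* still differed from *AP1* at 9 bases, *FUL* at 23 and *AGL79* at 33. The longest run of bases that a transcript of *AP1* shared with one of *CAL* was 56 bases. Reads that mapped to several places were left out of the counts, and the share of reads lost in this way was not measured.

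The 1000 bases before the start of each gene were searched for the CArG box, a pair of C, 6 bases of A or T and a pair of G. The pattern reads the same on both strands, so a search of one strand covers both. None of the 4 genes held it, as against 7.21% of the 27443 protein-coding genes. A near form, in which A or T takes the place of the inner C or of the inner G, was found in 37.6% of the genes, *AP1* and *FUL* among them. The sites of these members are given here with 10 bases on each side, read 5′ to 3′ on the strand of the gene, the near box in capitals.
AP1: tgacaaaataCTATTTTTGGgtttgaaatt
FUL: gattctcttcCCATAAATAGgccacttttt
The site of *AP1* lies at chr1:25986898-25986907, with 548 bases between it and the gene start, and that of *FUL* at chr5:24507210-24507219, with 940 bases between. The *FUL* stretch also holds a near box shifted by 1 base, at chr5:24507209-24507218. *CAL* and *AGL79* held no near box in this window. Sites with a G or C among the 6 inner bases, and sites outside the window, were not searched for. The absence of a match here thus does not show that a gene lacks sites for MADS proteins.

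*AP1* had the highest level of the members in every library, also per kb of exon. Its level was 214 and 205 CPM in the double mutant, 384 and 373 CPM in the libraries labelled as the triple mutant, and 186 and 161 CPM in the *SEP3* lines. Both libraries labelled as the triple mutant were thus above all 4 others, and both *SEP3* lines were below both double mutant libraries. Of the genes tested, 25.2% were higher without overlap in the libraries labelled as the triple mutant than in the double mutant. In the *SEP3* lines 23.5% were lower than in those libraries and 23.1% lower than in the double mutant, also without overlap. At least 95.67% of the genes tested had a lower CPM than *AP1* in each library.

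*CAL*, the closest paralogue of *AP1*, was the lowest of the 3 members with counts, also per kb of exon. It was at 8.35 and 4.37 CPM in the double mutant, at 15.5 and 14.6 CPM in the libraries labelled as the triple mutant, and at 11.3 and 13.1 CPM in the *SEP3* lines. The double mutant libraries were lowest and differed from each other by more than those of the other genotypes, with 211 and 105 counts. The *SEP3* lines lay between the other genotypes, and no groups overlapped. Of the genes tested, 25.2% were likewise higher without overlap under the triple mutant label than in the double mutant. In the *SEP3* lines 23.5% were lower than under that label and 21.8% higher than in the double mutant, also without overlap.

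*FUL* varied least. It was at 71.1 and 71.7 CPM in the double mutant, at 81.3 and 76.0 CPM in the libraries labelled as the triple mutant, and at 62.9 and 69.1 CPM in the *SEP3* lines. Its order over the genotypes was that of *AP1*, without overlap, but over a narrower range. The shares of genes tested that were separated in these directions are those given for *AP1*, 25.2%, 23.5% and 23.1%. *AGL79* had 0 counts in all 6 libraries, and a count of 0 allows up to 3 counts, or 0.0921 to 0.1253 CPM. Such limits cover counting error only and take the counts as independent. Most low counts were even, and where both reads of a pair were counted these limits are too low.

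**Figure D1:**
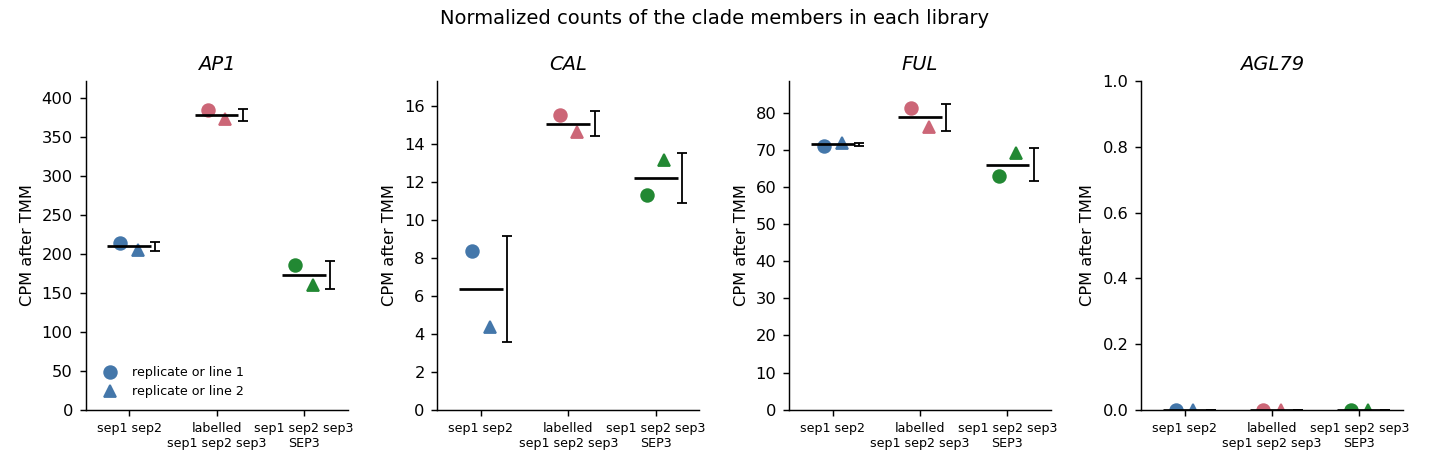
CPM after TMM normalization of *AP1*, *CAL*, *FUL* and *AGL79*, one panel per gene with its own linear axis from 0. Circles and triangles are the 2 libraries of a genotype, lines their mean and bars beside them the SD (n = 2). *AP1* is highest in the libraries labelled as the triple mutant, at 384 and 373 CPM, *CAL* is lowest in the double mutant, and *AGL79* is at 0 throughout.

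Per kb of exon, *AP1* was at 120 ± 3.41 CPM per kb in the double mutant, 217 ± 4.50 in the libraries labelled as the triple mutant and 99.3 ± 10.1 in the *SEP3* lines (SD, n = 2). On the same scale *FUL* was at 54.8 ± 0.341, 60.4 ± 2.88 and 50.7 ± 3.37, and *CAL* at 5.14 ± 2.28, 12.2 ± 0.529 and 9.87 ± 1.05. The order *AP1*, *FUL*, *CAL* held in every library, and the levels of the 3 genes did not overlap.

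The balance between the members differed by genotype. The ratio of *AP1* to *FUL* per kb was 2.25 and 2.14 in the double mutant, 3.53 and 3.67 in the libraries labelled as the triple mutant, and 2.21 and 1.74 in the *SEP3* lines. It was thus highest in the libraries labelled as the triple mutant, while the first *SEP3* line lay between the double mutant libraries. *AP1* made up 66.7 and 66.8% of the summed level of the clade per kb in the double mutant, 74.6 and 75.3% in the libraries labelled as the triple mutant, and 65.0 and 59.1% in the *SEP3* lines.

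The ratio of *AP1* to *CAL* per kb followed another order. It was 18.2 and 33.4 in the double mutant, 17.6 and 18.1 in the libraries labelled as the triple mutant, and 11.7 and 8.68 in the *SEP3* lines. The *SEP3* lines were lowest, and the double mutant libraries were apart from each other, as were their *CAL* levels of 8.35 and 4.37 CPM. *CAL* gave 2.00 to 6.82% of the clade's summed level over the 6 libraries, with its highest shares, 5.57 and 6.82%, in the *SEP3* lines.

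**Figure D2:**
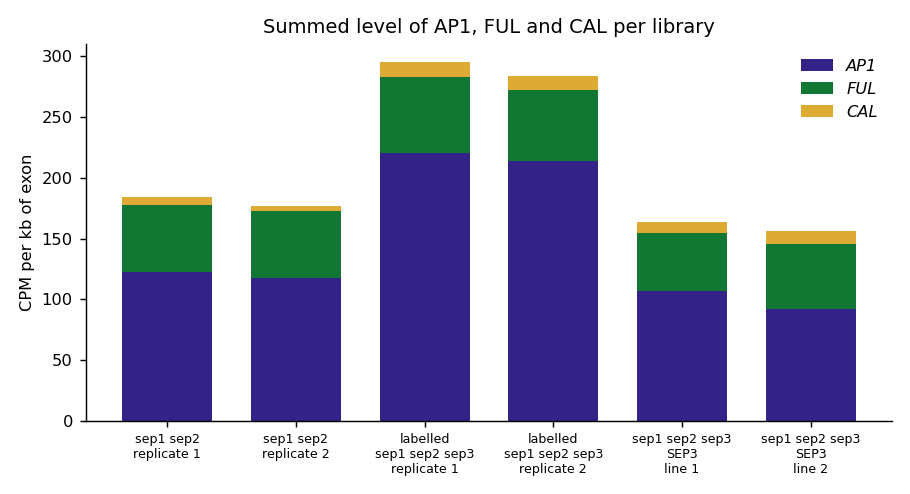
CPM per kb of exon (linear axis from 0) of *AP1*, *FUL* and *CAL*, stacked in one bar per library. The sums are 184 and 176.5 in the double mutant, 295.4 and 284.2 in the libraries labelled as the triple mutant, and 163.9 and 155.8 in the *SEP3* lines, with *AP1* the largest part of each bar.

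Genotypes were compared with edgeR's quasi-likelihood test over all genes tested. A gene is said to have risen, fallen or changed where its Benjamini-Hochberg FDR was under 0.05, and to be differentially expressed (DE) where in addition its log2 fold change was above 1 or below -1. An exact permutation test of 2 libraries against 2 cannot give a two-sided p under 0.33, so the tests rest on the spread that edgeR shares between genes. In bulk tissue, fewer cells of a type and less RNA per cell cannot be told apart.

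In the libraries labelled as the triple mutant, *AP1* and *CAL* rose relative to the double mutant. *AP1*, a floral meristem and perianth identity gene, was 1.81-fold higher, with a log2 fold change of 0.85 ± 0.110 (SE; 95% interval 0.617 to 1.09) and an FDR of 8.49e-05 from edgeR, and so was not DE by the fold threshold. *CAL*, which shares the meristem function of *AP1*, was 2.36-fold higher and DE, with a log2 fold change of 1.24 ± 0.240 (0.727 to 1.76) and an FDR of 0.00228 from edgeR. For *FUL* the log2 fold change was 0.14 ± 0.105 (-0.0852 to 0.364), with an FDR of 0.443 from edgeR, so the interval leaves room for a rise of up to 0.364 on the log2 scale. In this comparison 15.8% of the genes tested changed, 5.74% upward and 10% downward, and 8.24% were DE, 0.939% upward and 7.3% downward. The libraries of the genotypes did not overlap, with the first group higher, for all 3 members and for 25.2% of the genes tested, against 29.8% with the first group lower. Among the 18703 genes whose mean reached 1 CPM, 2.198% had a higher log2 fold change than *AP1* and 0.845% a higher one than *CAL*, and the median was 0.00.

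The call on *CAL* depended on a double mutant library. Without double mutant replicate 2, which had the lowest *CAL* level, the log2 fold change was 0.85 (FDR of 0.0214 from edgeR), below the fold threshold, and without double mutant replicate 1 it was 1.80. *AP1* kept its FDR under 0.05 in 12 of 12 other settings, with log2 fold changes of 0.82 to 0.89.

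Relative to the same libraries labelled as the triple mutant, *AP1* was DE and lower in the *SEP3* lines. Its level was 2.19-fold lower, with a log2 fold change of -1.13 ± 0.111 (-1.37 to -0.892) and an FDR of 6.38e-06 from edgeR. The log2 fold change of *CAL* was -0.30 ± 0.231 (-0.799 to 0.191), with an FDR of 0.519 from edgeR. That of *FUL* was -0.25 ± 0.105 (-0.478 to -0.0293), with an unadjusted p of 0.0294 and an FDR of 0.152 from edgeR. *AP1* thus fell, and *CAL* and *FUL* did not pass the test, while the difference between the responses of *AP1* and *CAL* was not tested. Of the genes tested, 12.5% changed in this comparison, 5.17% downward and 7.3% upward, and 6.29% were DE, 0.55% downward and 5.74% upward. All 3 members had groups without overlap, lower in the *SEP3* lines, as did 23.5% of the genes tested, while 26.6% were higher there without overlap. Of the genes whose mean reached 1 CPM, 0.706% had a lower log2 fold change than *AP1*. This comparison and the previous one share the libraries labelled as the triple mutant, so opposite signs in them are not independent of each other.

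Between the *SEP3* lines and the double mutant, *AP1* had a log2 fold change of -0.28 ± 0.110 (-0.511 to -0.0413) and an FDR of 0.197 from edgeR. *CAL* was 1.92-fold higher in the *SEP3* lines, with a log2 fold change of 0.94 ± 0.240 (0.423 to 1.45) and an FDR of 0.0424 from edgeR, so it rose but was not DE. *FUL* had a log2 fold change of -0.11 ± 0.105 (-0.339 to 0.110) and an FDR of 0.669 from edgeR. In this comparison 4.12% of the genes tested changed, 1.39% upward and 2.73% downward, 1.5% were DE, 0.365% upward and 1.14% downward, and groups without overlap were found for 21.8% of the genes upward and 23.1% downward. The FDR of *CAL* was under 0.05 in 3 of 12 other settings. It was lost, among others, without double mutant replicate 2 (log2 fold change 0.55, FDR of 0.267 from edgeR), without either *SEP3* line (1.04 and 0.83 without line 1 and line 2, FDR of 0.089 and 0.224 from edgeR) and without either library labelled as the triple mutant (both 0.94, FDR of 0.0799 and 0.0782 from edgeR). Without double mutant replicate 1 it was DE, with a log2 fold change of 1.49 and an FDR of 0.00745 from edgeR.

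**Figure D3:**
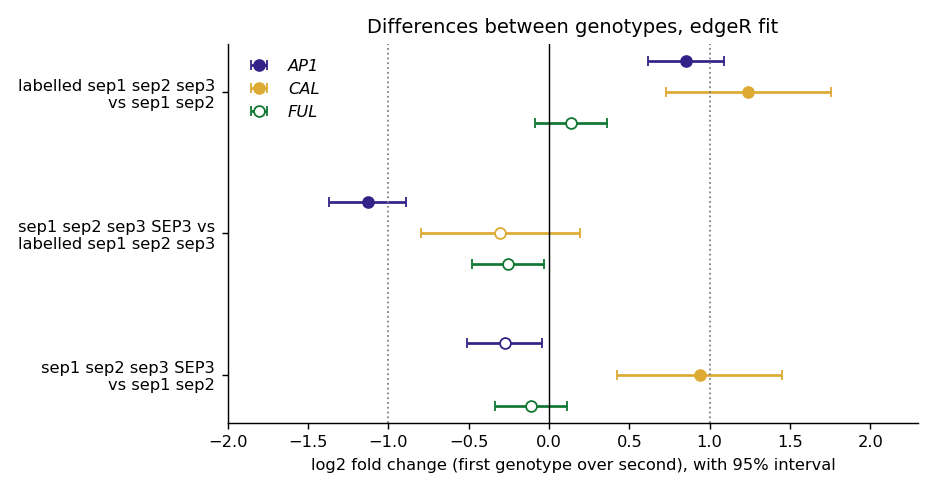
Log2 fold changes of *AP1*, *CAL* and *FUL* in the 3 comparisons, with 95% intervals from edgeR's quasi-likelihood fit. Filled points have an FDR under 0.05, and dotted lines mark the fold threshold. *AP1* lies at 0.85 and -1.13 in the first 2 comparisons, and every interval of *FUL* stays within 0.5 of 0 on the log2 scale.

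Marker lists of other tissues differed between the genotypes, not all of them in the order of *AP1*. All 14 tapetum and pollen wall markers, genes of the anther layer that feeds the pollen, were DE and lower in the libraries labelled as the triple mutant than in the double mutant, and all 14 were DE and higher in the *SEP3* lines. Of all genes tested, 7.3% were DE and lower in the first of these comparisons and 5.74% DE and higher in the second. Their summed level was 2996 and 3443 CPM in the double mutant, 268.3 and 210.9 CPM in the libraries labelled as the triple mutant, and 3179 and 1779 CPM in the *SEP3* lines, so it moved opposite to *AP1*. Carpel and ovule markers summed to 128.9 and 132.8, 69.9 and 58.33, and 125.6 and 133.3 CPM in the same order. Of these 10 markers, 8 were DE and lower in the first comparison and 7 DE and higher in the second. *NGA1* went the other way and rose in the first, with a log2 fold change of 0.64 (FDR of 0.00483 from edgeR). The ovule gene *INO* had 0 counts in both libraries labelled as the triple mutant and in *SEP3* line 2. Green tissue markers (photosynthesis genes of leaves and sepals) summed to 13480 and 13310, 15320 and 17800, and 10650 and 9124 CPM, the same order as *AP1*. Of these, 2 of 7 rose in the first comparison and 7 of 7 fell in the second, against 5.74% and 5.17% of all genes tested. Petal markers summed to 314.4 and 352.4, 334.6 and 342.1, and 403.5 and 353 CPM. The first pair of genotypes thus overlapped, and the second *SEP3* line, at 353 CPM, was barely above the double mutant library at 352.4 CPM. *AP3* and *PI*, which also act in stamens, had the highest levels of this list in every library, so the sum largely follows them. Of these 6 markers, 3 rose and 1 fell in the first comparison, against 5.74% and 10% of all genes tested. The highest was *TCP4*, DE with a log2 fold change of 1.08 (FDR of 7.04e-05 from edgeR), and the lowest was *RBE*, which did not pass and had at most 10 counts in a library. In the second comparison 1 rose and 1 fell, against 7.3% and 5.17% of all genes tested. The part of these tissues in the results on *AP1*, *CAL* and *FUL* was not tested.

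Genes that act upstream of the clade rose with *AP1* and *CAL* in several cases. Of 15 activators of *AP1*, *CAL* or *FUL*, 7 rose and none fell in the libraries labelled as the triple mutant relative to the double mutant, with 1 of them DE, against 5.74% of all genes tested that rose, and the median log2 fold change was 0.42 (all genes tested -0.03). In the *SEP3* lines, 6 of the 15 fell relative to those libraries and none rose, with 1 DE, against 5.17% of all genes tested that fell, and the median was -0.27 (all genes tested 0.02). Between the *SEP3* lines and the double mutant none of the 15 changed, and only 4.12% of all genes tested changed there.

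*SPL5*, a target of miR156 that promotes flowering, was at 43.4 and 45.4 CPM in the double mutant, 77.5 and 103 CPM in the libraries labelled as the triple mutant, and 63.9 and 48.4 CPM in the *SEP3* lines. It was the activator DE in the first comparison (log2 fold change 1.02, FDR of 0.000244 from edgeR), and was below the fold threshold without the second library labelled as the triple mutant (0.80). In the second comparison its log2 fold change was -0.68 (FDR of 0.00602 from edgeR), or -0.46 without that library and -0.50 without *SEP3* line 2, when it no longer passed. *LMI1*, a homeodomain factor that acts with LFY on *CAL*, was at 8.63 and 11.8 CPM, 19.7 and 17.4 CPM, and 6.67 and 7.78 CPM in the same order. It was the activator DE in the second comparison (log2 fold change -1.36, FDR of 0.000172 from edgeR). In the first it rose, with a log2 fold change of 0.86 (FDR of 0.00494 from edgeR), a call lost without the first double mutant library (0.66) or the first library labelled as the triple mutant (0.77).

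Other activators were chosen for description after their values were seen. *LFY*, which encodes the LEAFY factor that directly activates *AP1* and *CAL*, was at 18.0 and 20.7 CPM, 31.5 and 30.1 CPM, and 17.5 and 24.6 CPM, with log2 fold changes of 0.67 and -0.55 in the first and second comparison (FDR of 0.00879 and 0.0296 from edgeR). Both were unsteady, with the first call lost without double mutant replicate 1 (0.58) or either library labelled as the triple mutant (0.63 and 0.70), and the second without either of the latter (-0.52 and -0.59) or without *SEP3* line 1 (-0.33), and also with filterByExpr (-0.55, FDR of 0.0702 from edgeR). *FD*, the bZIP partner of the florigen FT, was at 10.9 and 11.0, 18.7 and 21.9, and 12.0 and 11.9 CPM, with log2 fold changes of 0.89 and -0.76 (FDR of 0.000878 and 0.00327 from edgeR). The second of these was -0.64 and no longer passed without the second library labelled as the triple mutant. *BOP2*, a co-activator at *AP1*, was at 17.1 and 16.3, 25.7 and 25.5, and 15.9 and 16.9 CPM, with log2 fold changes of 0.61 and -0.64 and an FDR under 0.05 in 12 of 12 other settings in both. *SPL9* and *SPL4*, relatives of *SPL5*, completed the 7 that rose, with log2 fold changes of 0.44 and 0.37 (FDR of 0.00859 and 0.0414 from edgeR), and passed in 11 and 4 of 12 other settings. *SPL9* (0.38) was lost without the first library labelled as the triple mutant, and *SPL4* when either of these libraries (0.29 and 0.44) or double mutant replicate 1 (0.26) was left out, and also, at an unmoved 0.37, without either *SEP3* line (FDR of 0.0586 and 0.0579 from edgeR). The activators with the most extreme fitted changes, *TSF* and *PUCHI*, had at most 4 and 6 counts in a library, so no fold is given.

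The list of genes repressed by AP1 had 4 of 8 members that fell and 1 that rose in the libraries labelled as the triple mutant, where *AP1* was highest, with 3 DE and lower and a median of -0.55 on the log2 scale (all genes tested -0.03), while 10% of all genes tested fell and 5.74% rose. In the *SEP3* lines relative to those libraries 2 rose and 1 fell, against 7.3% and 5.17% of all genes tested, with a median of 0.06 (all genes tested 0.02). *SVP*, *AGL24* and *LOG1* of this list did not pass the test in any comparison.

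*TEM2*, a repressor of *FT*, was at 2.93 and 2.42 CPM in the double mutant, at 0.167 and 0.204 CPM (4 and 6 counts) in the libraries labelled as the triple mutant, and at 1.66 and 1.77 CPM in the *SEP3* lines. It was DE in both comparisons, with log2 fold changes of -3.81 and 3.17 (FDR of 7.79e-05 and 0.000485 from edgeR), and was the list's lowest and then highest gene. *TFL1*, which keeps the inflorescence meristem from turning into a flower, was at 14.7 and 7.58, 4.60 and 3.12, and 2.95 and 4.68 CPM. It was DE and lower than in the double mutant both in the libraries labelled as the triple mutant (log2 fold change -1.53, FDR of 0.00443 from edgeR) and in the *SEP3* lines (-1.55, FDR of 0.0157 from edgeR), and so did not follow *AP1* in the latter. Without double mutant replicate 1, the library with the highest *TFL1*, these were -0.96 and -0.99 and did not pass, and the first (-1.27) was also lost without the second library labelled as the triple mutant, the second (-1.25) without *SEP3* line 1. The second was also lost with filterByExpr and with the replicate block (-1.55 and -1.48, FDR of 0.0906 and 0.0697 from edgeR). *TEM1*, the close relative of *TEM2*, was at 15.5 and 9.49, 4.26 and 6.85, and 7.13 and 7.66 CPM, and was DE in the first comparison (log2 fold change -1.17, FDR of 0.00682 from edgeR), a call lost without the first double mutant library (-0.76) or the first library labelled as the triple mutant (-0.87).

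*FDP*, a bZIP paralogue of *FD*, moved against the name of its list. It was at 17.0 and 16.7, 32.1 and 32.7, and 15.9 and 18.4 CPM, so that its order of genotypes was close to that of *AP1*, and it rose with a log2 fold change of 0.94 and fell with -0.92 (FDR of 0.000151 and 0.000204 from edgeR). Without *SEP3* line 2 the latter was -1.02 and passed the fold threshold. *SOC1*, a MADS-box gene that integrates flowering signals, was at 66.3 and 71.9, 38.3 and 42.3, and 55.7 and 75.5 CPM, and was chosen after its values were seen. It fell with a log2 fold change of -0.78 and rose with 0.70 (FDR of 0.00114 and 0.00293 from edgeR), and the rise no longer passed without the first library labelled as the triple mutant (0.63) or *SEP3* line 2 (0.47).

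Among 10 genes of AP1's partners and cofactors, 3 rose and 2 fell in the libraries labelled as the triple mutant, with a median log2 fold change of 0.07. Over all genes tested 5.74% rose and 10% fell there, with a median of -0.03. In the *SEP3* lines relative to those libraries 3 of the 10 rose and 1 fell, with a median of 0.01, against 7.3% and 5.17% of all genes tested and their median of 0.02. *SEP1* and *SEP2*, both named in every genotype, and *SEP3* held the DE calls. *SEP2* had log2 fold changes of -2.19 and 2.21 (FDR of 0.0131 and 0.0149 from edgeR). They passed in 7 and 6 of 12 other settings, and both were lost with DESeq2 (-2.19 and 2.204, FDR of 0.135 and 0.16 from DESeq2) and with filterByExpr (FDR of 0.0793 and 0.0933 from edgeR), the second also with the replicate block (2.03, FDR of 0.0875 from edgeR). The first was also lost without double mutant replicate 1 (-1.70) or either library labelled as the triple mutant (-2.42 and -1.99), and the second without either of the latter (2.43 and 2.00) or without *SEP3* line 2, the line with 108 CPM, when it was 0.30. *SEP1* had a log2 fold change of 1.16 in the first comparison (FDR of 0.0289 from edgeR), and it did not pass in 6 of 12 other settings, which include each of the 4 fits without a library of this comparison (0.98 to 1.38). In the second comparison *SEP1* was the lowest of the list, at -0.73 (FDR of 0.194 from edgeR). *SEP3* had log2 fold changes of 0.17 (FDR of 0.502 from edgeR) and 1.45 (FDR of 9.86e-06 from edgeR), and 1.62 in the *SEP3* lines relative to the double mutant (FDR of 3.84e-05 from edgeR). The other changed genes of the list were chosen after their values were seen. *SEP4*, the fourth *SEP* gene, was at 25.7 and 28.3, 40.9 and 46.5, and 21.9 and 32.1 CPM, with log2 fold changes of 0.69 and -0.70 (FDR of 0.00777 and 0.0085 from edgeR). The first was lost without double mutant replicate 1 (0.64), the second without *SEP3* line 1 (-0.45), and both without the second library labelled as the triple mutant (0.60 and -0.60). *PI*, the partner of *AP3*, moved the other way, with log2 fold changes of -0.53 and 0.62 (FDR of 0.00844 and 0.00322 from edgeR). Its fall was lost without double mutant replicate 2 (-0.34) or either library labelled as the triple mutant (-0.48 and -0.58), and its rise without the first of these (0.58). *SEU*, a co-repressor, had a log2 fold change of 0.36 in the first comparison (FDR of 0.0344 from edgeR), which passed in 5 of 12 other settings and was lost without double mutant replicate 2 (0.29), either library labelled as the triple mutant (0.43 and 0.28) or either *SEP3* line (both 0.36). *AP3* and *AG*, the organ identity genes of petals and stamens and of stamens and carpels, did not pass the test in any comparison. *AGL6*, the lowest of the list between the *SEP3* lines and the double mutant, was there at -0.39 (FDR of 0.123 from edgeR).

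The fourth list held 13 genes of the *FUL* network in fruit and meristem, of which 11 had counts and *IND* and *SAUR10* had none. In the libraries labelled as the triple mutant 1 was DE and higher and 4 were DE and lower than in the double mutant, against 0.939% and 7.3% of all genes tested. The list's median log2 fold change was 0.12 (all genes tested -0.03), and *FUL* itself did not pass the test. In the *SEP3* lines relative to those libraries 3 rose, all DE, and 1 fell without being DE, with a median of 0.07 (all genes tested 0.02). Of all genes tested 5.74% were DE and higher and 5.17% fell in this comparison. Relative to the double mutant none of the 11 changed, and only 4.12% of all genes tested changed there. *SHP1* and *SHP2* are valve margin and ovule genes that FUL keeps out of the valves, and both are also in the carpel list. *SHP1* was at 11.1 and 10.7, 2.47 and 1.93, and 9.06 and 7.62 CPM. *SHP2* was at 3.33 and 3.997, 0.585 and 0.136, and 4.82 and 2.86 CPM. Their log2 fold changes were -2.32 and 1.93 for *SHP1* (FDR of 7.17e-06 and 4.22e-05 from edgeR) and -3.39 and 3.46 for *SHP2* (FDR of 0.000298 and 0.000273 from edgeR). *FUL* was at 81.3 and 76.0 CPM in the libraries labelled as the triple mutant and did not pass the test. A part of FUL in the levels of *SHP1* and *SHP2* was not tested.

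*AP2*, a floral organ identity gene that FUL represses in the meristem, was at 49.7 and 56.5, 116 and 109, and 70.8 and 55.2 CPM. It was DE and higher in the libraries labelled as the triple mutant (log2 fold change 1.08, FDR of 3.67e-05 from edgeR) and fell in the *SEP3* lines (-0.83, FDR of 0.000399 from edgeR, and -1.03 without line 1, past the fold threshold). *WUS*, which maintains stem cells in the meristem, was at 4.36 and 6.79, 2.26 and 1.46, and 8.35 and 6.05 CPM, with log2 fold changes of -1.59 and 1.97 (FDR of 0.00266 and 0.000611 from edgeR). The first was lost without double mutant replicate 2 (-1.24) or the second library labelled as the triple mutant (-1.30). *SMZ*, an *AP2*-like flowering repressor, was at 0.752 to 2.46 CPM, and its log2 fold change of -1.25 (FDR of 0.0483 from edgeR) held in 1 of 12 other settings, with -1.54 to -1.02 when 1 library was left out. *SNZ*, with the most extreme fitted changes otherwise, had at most 2 counts in a library, so no fold is given. *TOE3*, another *AP2*-like gene, was the highest of the list between the *SEP3* lines and the double mutant, at 0.42 (FDR of 0.276 from edgeR).

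**Figure D4:**
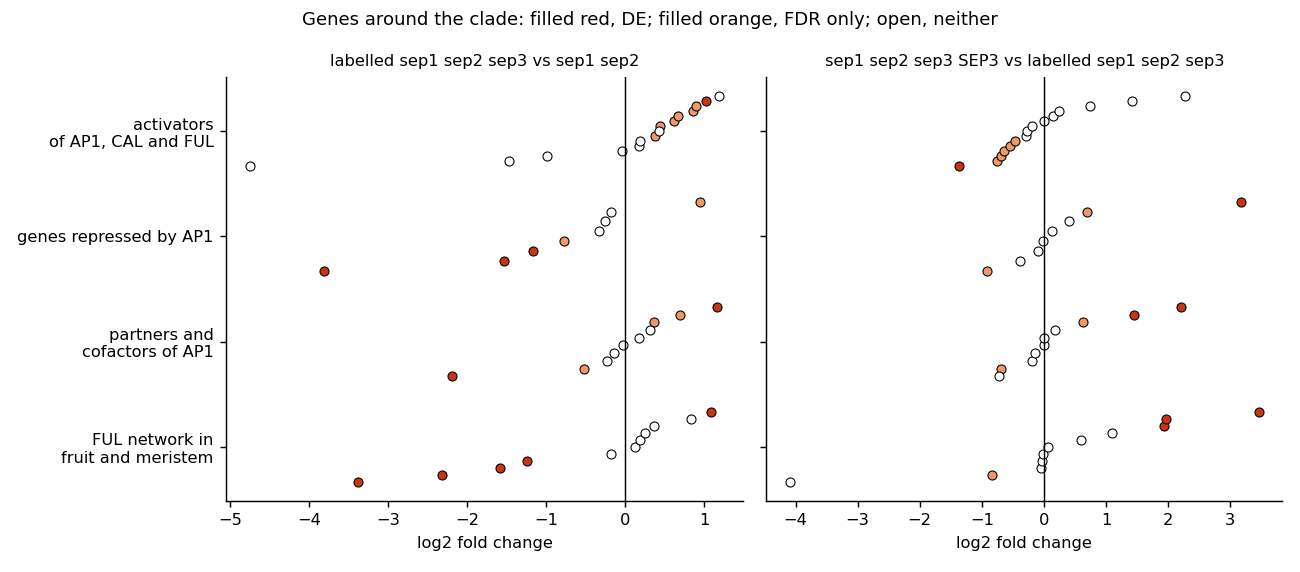
Log2 fold changes from edgeR of the genes of the 4 lists, one point per gene with counts, sorted by value within each list, in 2 comparisons. Red points are DE, orange points have an FDR under 0.05 without passing the fold threshold, and open points pass neither. Of the 15 activators 7 are coloured in the left panel, all to the right of 0, and 6 in the right panel, all to the left. The open points at the far left are *TSF* on the left and *SNZ* on the right, with at most 4 and 2 counts in a library.

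The genes whose pattern over the 6 libraries was most like that of a member were found by the root mean square difference of log2(CPM + 0.5), each gene centred on its own mean, among the 18703 genes whose mean reached 1 CPM. For *AP1*, whose own values had a root mean square of 0.485 on this scale, they were AT5G26280 (0.0331), the chlorophyll-binding protein gene *CAB3* (0.0879) and AT1G61760 (0.0881). *CAB3* was at 1522 and 1529, 2760 and 3166, and 1462 and 1184 CPM, and AT5G26280 at 4.67 and 4.25, 8.27 and 7.87, and 3.75 and 3.23 CPM. For *CAL* (0.590) they were AT1G31430, AT1G12160 and AT4G31680 (0.0837 to 0.139), all with at most 3.47 CPM in a library. For *FUL* (0.114) they were AT5G58950 (0.0167), AT1G51560 (0.0253) and *CAF1* (AT2G20020, 0.0269), the smallest differences of the 3 members, beside the smallest variation of the member itself. The members were not close to each other on this scale. *CAL* differed from *AP1* by 0.576, as rank 13443 of the genes, and *FUL* by 0.395, as rank 2847.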

How the data were processed

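Polyadenylated RNA of 6 inflorescence libraries, 2 for each of 3 genotypes, was sequenced as read pairs of 150 bases. The authors aligned them to TAIR10 using STAR, keeping reads with a single position and fewer than 10 mismatches, and deposited whole-number counts per gene from FeatureCount, run with default parameters in Galaxy. Versions and the strand setting are not given in the sources used here. Per library, 85.9 to 88.3% of counts between 1 and 20 were even, as when both reads of a pair are counted, and the counts were not taken as independent molecules. The 2 deposited comparison tables hold the authors' fold changes, p-values and FDR values and were not used.

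Genes with at least 1 count in 1 library (25458) were fitted together over all 6 libraries with edgeR 4.0.16 (limma 3.58.1, R 4.3.3), with TMM normalization, 1 mean per genotype, edgeR's default prior count and its quasi-likelihood test. As in the study, DE meant an FDR (Benjamini-Hochberg) under 0.05 together with a log2 fold change beyond 1 in either direction. Standard errors are the log2 fold change divided by the square root of its F statistic. The fit was run on simulated data with known changes, in which all genes had the same dispersion and as many rose as fell. These data differ in both, so the simulation checked the code and not the precision of the tests. Library totals of 24000063 to 31263376 counts set the precision.

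Gene models and sequences came from RefSeq's TAIR10.1, used with its own annotation. CPM per kb used the length of all exons of a gene. The members and lists were chosen with earlier results of these data known, so their counts are no independent support. Named list genes were those DE in any comparison and the highest and lowest of each list, and other names are said to be chosen after their values were seen. For each member, the 3 genes with the most similar pattern were also named. Alternatives were DESeq2 1.42.0, RLE normalization, filterByExpr, a replicate block, a fit of the 4 libraries compared, halved counts, and leaving out each library in turn.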

Additional observations from a re-analysis of the deposited data

How the results depend on the processing

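Over the 12 other settings, no direction of *AP1*, *CAL* or *FUL* was turned in any comparison. The log2 fold changes of *AP1* were 0.82 to 0.89, -1.24 to -1.03 and -0.39 to -0.18 in the 3 comparisons (libraries labelled as the triple mutant against the double mutant, the *SEP3* lines against those libraries, and the *SEP3* lines against the double mutant), and its calls were the same in all of them. Those of *CAL* without 1 library each were 0.85 to 1.80, -0.42 to -0.20 and 0.55 to 1.49, and those of *FUL* were 0.09 to 0.19, -0.32 to -0.19 and -0.18 to -0.05, with no call.

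The DE counts over all genes were 2098, 1601 and 383. They were 4020, 3174 and 1050 without the fold threshold, 1376 to 2116, 1062 to 1473 and 198 to 400 when 1 library was left out, and 164 in the third comparison with filterByExpr. With the replicate number as a block the counts were 1782, 1317 and 245, and *CAL* in the third comparison no longer passed (log2 fold change 0.98, FDR of 0.0995 from edgeR). Deviations of same-numbered libraries correlated at -0.112, -0.0591 and -0.0218, so no large shift shared by same-numbered libraries was seen. A small one cannot be seen in this way. Without TMM factors the mean of *AP1* was 368.86 CPM in the libraries labelled as the triple mutant and that of *FUL* 70.7 CPM in the double mutant. Both means differ from those given above only through the TMM factors, 0.985 and 0.9628 in the libraries labelled as the triple mutant and 0.9994 and 0.9803 in the double mutant. The causes of the other shifts between settings were not tested.

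With 2 libraries per genotype, and with the lone library of a reduced genotype assumed to vary like the others, precision rests on the spread shared between genotypes and genes. It is lowest for *CAL*, with 105 to 431 counts per library. Groups of 2 allow no check for single outlying libraries.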
